A study of Homo sapiens with 32 samples.

Results

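Loops with an anchor at an olfactory receptor (OR) gene of human chromosome 11 were collected from 4 lists of chromatin loops called in in situ Hi-C maps. A loop is a pair of 5 kb anchors whose contact stands out in the map. It was counted here when at least 1 anchor lay within 10 kb of the body of a protein-coding OR gene, taken by its symbol from GENCODE release 44 on hg38. Chromosome 11 has 172 such genes, and 40 of the 2192 chromosome 11 loops met the rule. The lists hold 45629 loops on all chromosomes. Loops at the other 1145 protein-coding genes of chromosome 11 with no anchor at an OR gene, 1990 in all, served for comparison; 6 of those genes are named as OR pseudogenes.

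The cells were HEK293, a human embryonic kidney line, either wild type (WT) or of the genotype labelled eGFP-YAP, a green fluorescent protein fused to the transcriptional co-activator YAP. Each was untreated (control) or kept in 200 mM sorbitol for 1 h, a sugar alcohol used to make the medium hyperosmotic, so that cells lose water. The labels name 3 replicates for each WT condition and 4 for each eGFP-YAP condition, and every condition has 1 pooled list, so no difference below has a replicate check or a test. The promoter that drives the fusion and the number of clones are not stated in the labels, and the lists of the 2 lines carry different source names, so line and source cannot be told apart. The growth protocol speaks of HEK293T where the labels say HEK293. The series design mentions 1 h without serum before sorbitol for the eGFP-YAP time course and does not say whether it applies to these lists. The lists hold no RNA values, so neither OR gene expression nor the identity of the cells was analysed here.

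OR genes encode the odorant receptors of the nose, the largest family of G protein-coupled receptors. Class I receptors, the families numbered in the fifties, resemble those of fish and lie in a single cluster on the short arm of chromosome 11, while class II receptors fill clusters on many chromosomes. Each olfactory neuron expresses a single OR allele, and in other tissues the clusters are usually silent and packed in heterochromatin. Many loops of mammalian chromosomes end at sites bound by CTCF, where the cohesin ring stops, and the motifs at their anchors then usually point towards each other.

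The sequences that mark the ends of OR loops are shown first, since they include both ends of the only OR loop in a sorbitol list. The CTCF core motif was searched on both strands of each anchor in hg38 with at most 1 mismatch. Each line gives a match in capitals with 8 flanking bases on each side, 5′ to 3′ on the strand of the motif, and the coordinates are those of the capitals. The first pair lies in the loop from OR51B5 and OR52D1 to OR52N2, which was listed in WT control and in eGFP-YAP sorbitol. The left match is in an intron of OR51B5 and the right match in an intron of TRIM5, an antiviral restriction factor.
OR51B5 end, plus strand, chr11:5476404-5476417: ctgtatggCCACAAGGGGGCACtcagaggg
OR52N2 end, minus strand, chr11:5808619-5808632: aagagcctCCAGCAGGTGGGGCtaaaggat

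The next 4 pairs are those of the eGFP-YAP control OR loops that had motifs on a single strand at each anchor. The right match of the first pair lies in an untranslated or non-coding exon of OR51L1. The left match of the last pair lies in an intron of DTX4, a ubiquitin ligase of the Notch pathway. The other 6 matches lie in no protein-coding gene.
OR51D1 end, plus strand, chr11:4637071-4637084: ctgtgcgaCCACAAGGTGGCAGcatgaaga
OR51L1 end, minus strand, chr11:5004626-5004639: aaacttggCCAGCAGAGGGTGCcgcaggga
OR52L1 end, plus strand, chr11:5992815-5992828: gagcttctCCACTAGGTGGAGCgaagcttc
Partner of OR52L1, minus strand, chr11:6353621-6353634: tctagataCCAGTAGATGGCACtgcaacct
OR5I1 end, plus strand, chr11:55942979-55942992: atttccacACACTAGATGGCACcagagaca
Partner of OR5I1, minus strand, chr11:56783637-56783650: aagcattgCCACTAGATGGCAGcatcaact
Partner of OR5A1, plus strand, chr11:59171593-59171606: actttaggCCAGCAGGGGGCGGgtaagctc
OR5A1 end, minus strand, chr11:59430109-59430122: gcatatttCCACTAGGTGGCAGcaacattc

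In all 5 pairs the left motif is on the plus strand and the right motif on the minus strand, so the motifs point towards each other. Counted per list, all scored OR loops were of this kind: 1 of 1 in WT control, 4 of 4 in eGFP-YAP control and 1 of 1 in eGFP-YAP sorbitol. Among loops at other genes the share was 71.7% of 53 scored loops, 72.0% of 132 and 80.6% of 31 in the same lists. With 4 scored loops the 95% Wilson interval runs from 51.0% to 100%, which includes the value of the other genes. The site beside OR8A1 that ends loops in both control lists, chr11:124586413-124586426, has no mismatch, and a second match on the plus strand overlaps it. None of its loops was scored: the OR8B3 loops have no motif at the other anchor, and the eGFP-YAP loop of 515 kb has matches on both strands here.
OR8A1 end, minus strand, chr11:124586413-124586426: gcaagctgCCACCAGGTGGCAGcagcagaa

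Most OR loops had no such match inside their 5 kb anchors. In WT control, 3 of 24 anchors of OR loops held the motif, 12.5% (Wilson interval 4.34 to 31.0%), against 30.0% of 1210 anchors at other genes. In eGFP-YAP control it was 17 of 54, 31.5% (20.7 to 44.7%), against 38.7% of 1640. The same OR anchors moved by 100 kb held it in 4.17% and 3.70%, and the moved anchors of other genes in 12.2% and 11.7%. The OR values sit above their moved anchors in both lists, by 2 anchors in WT and by 15 in eGFP-YAP. With the anchors widened by 5 kb on each side, the shares came to 62.5% in WT and 50% in eGFP-YAP, beside 59.3% and 62.5% at other genes, so the order of OR and other loops in WT depended on the width searched. With no mismatch allowed they were 4.17% and 13.0%, beside 6.69% and 10.1%, so the order in eGFP-YAP depended on the mismatch.

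Fewer OR loops were listed with sorbitol in both lines. The WT lists held 12 OR loops in control and 0 with sorbitol. The eGFP-YAP lists held 27 in control and 1 with sorbitol. The WT ratio of sorbitol to control was thus 0, with an exact interval of 0 to 0.360. The eGFP-YAP ratio was 0.0370 (exact interval 0.000905 to 0.225), 27-fold fewer. At other genes of the chromosome 605 and 286 loops were listed in WT, a ratio of 0.473 (0.409 to 0.545), and 820 and 279 in eGFP-YAP, a ratio of 0.340 (0.296 to 0.390). The OR ratios lay below those of the other genes, with no overlap of the intervals in either line. The intervals of OR and other genes did overlap under some other settings. In WT they did so at 0 kb (OR 0 to 0.849), at 25 kb (0.00169 to 0.469), with the upper 50% by score (0 to 0.507) and without OR anchors near another gene (0 to 0.586). In eGFP-YAP they did so at 0 kb (0.00195 to 0.563) and with the upper 50% by score (0.00115 to 0.296). OR loops made up 1.77% (Wilson interval 1.01 to 3.06%) of chromosome 11 loops in WT control and 0% (0 to 1.30%) in WT sorbitol. In eGFP-YAP they made up 2.91% (2.00 to 4.20%) in control and 0.342% (0.0605 to 1.91%) with sorbitol. By this share the intervals of control and sorbitol overlap in WT and do not in eGFP-YAP. These intervals cover counting error only, and neighbouring loops share anchors and are not independent.

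The counts differed between conditions also with control and sorbitol lists of equal length. When each control list was shortened to the loop number of its sorbitol list by keeping the highest scores, 7 OR loops remained in WT control and 13 in eGFP-YAP control, beside the 0 and 1 of the sorbitol lists. At other genes the shortened control lists held 232 loops in each line, fewer than the 286 and 279 of the sorbitol lists. The cut keeps loops of high score, and OR loops ranked higher than other loops in control. Their median percentiles were 67.8 in WT and 64.5 in eGFP-YAP, against 49.4 and 49.6. List length and score thus cannot be told apart here. The OR ratios against the shortened lists had exact intervals of 0 to 0.694 and 0.00181 to 0.512. When OR pseudogenes were added to the rule, 373 genes in all, the counts were 25 and 3 in WT and 39 and 3 in eGFP-YAP, ratios of 0.120 and 0.0769, beside 0.476 and 0.342 at the remaining genes. At a distance of 25 kb the counts were 14 and 1, and 35 and 2, ratios of 0.0714 and 0.0571 beside 0.458 and 0.337. Of the loops at the edge of the 10 kb rule, 2 in WT control and 4 in eGFP-YAP control had their nearest anchor over 5 and up to 10 kb from an OR gene. Over 10 and up to 15 kb lay 5 in eGFP-YAP control, 1 in eGFP-YAP sorbitol and 0 in both WT lists.

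Anchors of OR loops had a lower GC content than anchors at other genes, and in eGFP-YAP the ratio at other genes was also lower at low GC content. The median GC content of OR loop anchors was 41.2% (order-statistic interval 39.8 to 42.5%) in WT control and 40.2% (36.5 to 42.5%) in eGFP-YAP control, against 45.2% and 44.7% at other genes. Among loops at other genes with a mean anchor GC content under 40%, the ratio of sorbitol to control was 0.374 (0.244 to 0.560) in WT and 0.165 (0.107 to 0.245) in eGFP-YAP. These intervals overlap those of the OR loops in each line. OR loops under 40% GC numbered 3 in WT control and 13 in eGFP-YAP control, with 0 in both sorbitol lists. At 40% GC and over they numbered 9 and 0 in WT and 14 and 1 in eGFP-YAP, ratios of 0 (0 to 0.507) and 0.0714 (0.00169 to 0.469). The ratios at other genes there, 0.490 (0.420 to 0.571) and 0.388 (0.334 to 0.450), lie inside these OR intervals, so OR and other genes were not separated within this range of GC content. Other loops with no gene start in either anchor had ratios of 0.326 (0.272 to 0.388) and 0.217 (0.181 to 0.259), and both intervals overlap those of the OR loops. The part of GC content and gene starts in the OR counts was not tested.

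**Figure D1:**
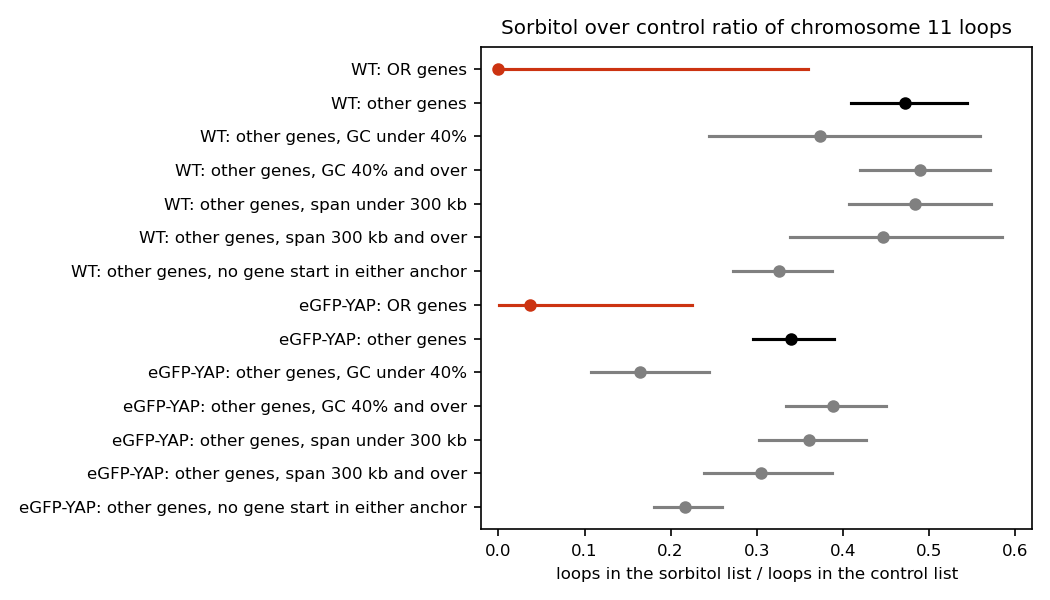
Number of loops with sorbitol over the number in control (horizontal axis, no unit) for OR loops in red, all other-gene loops in black and subsets of the other-gene loops by anchor GC content, span or gene starts in grey; points are ratios and lines are exact 95% intervals. The OR ratios of 0 and 0.0370 lie left of every other point, and the lines of other genes under 40% GC reach into the OR ranges. The lines of other genes with no gene start in either anchor do so too, as does the WT line at 300 kb and over.

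No OR loop of a control list was called again with sorbitol, where both anchor centres had to lie within 10 kb. The count was 0 of 12 in WT, which allows a share of up to 25%, and at other genes the share was 8.26%. It was 0 of 27 in eGFP-YAP, which allows up to 11.1%, against 12.0% at other genes. The WT limit is above the background and the eGFP-YAP limit just below it, so at these numbers the OR shares may be close to those of other genes. The nearest sorbitol loop of the same line lay a median of 305 kb from the OR loops in WT and 300 kb in eGFP-YAP, counting the anchor that was farther off. The smallest distance was 90 kb in WT and 20 kb in eGFP-YAP. No OR loop was found in all 4 lists.

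The single OR loop of the eGFP-YAP sorbitol list was not in the eGFP-YAP control list by this rule, so it counts as sorbitol-only, 1 of 1, beside 64.5% of other loops in that list. The WT sorbitol list had no OR loop to classify, and 82.5% of its other loops were sorbitol-only. The loop joins chr11:5475001-5480000, beside OR51B5 and OR52D1, to chr11:5805001-5810000, which holds the start of OR52N2. It spans 330 kb, and its score ranked at percentile 94.7 of its list. The WT control list has a loop at exactly the same anchors, at percentile 90.7. The nearest eGFP-YAP control loop, from 5455001 to 5815001, was 20 kb away, and the loop was matched to it when 25 kb was allowed.

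Between the lines, 4 OR loops of the control lists matched, which is 33.3% of the 12 in WT and 14.8% of the 27 in eGFP-YAP. The shares at other genes were 47.3% and 34.9%. The WT interval of 13.8 to 60.9% includes the value of other genes, while the eGFP-YAP interval of 5.92 to 32.5% ends below it. With 25 kb allowed the WT share was 66.7%, against 64.6% at other genes, and the eGFP-YAP share 29.6% (15.9 to 48.5%), against 48.7%. In the sorbitol lists 0 of 1 matched, beside 25.2% of WT and 25.8% of eGFP-YAP loops at other genes.

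The 4 shared loops lie in 3 clusters. The strongest joins OR51D1 and OR51E1 to OR51L1 over 365 kb, at a mean score percentile of 98.4 over the control lists. OR51E1 is a receptor also known from prostate, where it was described as a prostate-specific G protein-coupled receptor. A loop of 310 kb ends at OR52K1 from a partner anchor outside the OR genes and had a mean percentile of 89.0. A loop of 180 kb from OR8B3 to OR8A1, at the same anchors in both lists, had 81.6. The fourth ends at OR5B21 from 590 kb away and had 36.9.

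OR loops of the control lists were longer than loops at other genes. The median span in WT was 352.5 kb (290 to 590 kb), from 135 to 710 kb, against 195 kb (185 to 215 kb) at other genes. In eGFP-YAP it was 395 kb (270 to 650 kb), from 90 to 1160 kb, against 225 kb (210 to 240 kb). The intervals do not overlap in either line. Spans of 300 kb and over were found in 9 of 12 and 19 of 27 OR loops. Span did not separate the ratios at other genes: 0.447 (0.339 to 0.585) in WT and 0.306 (0.239 to 0.387) in eGFP-YAP at 300 kb and over. OR loops of that span numbered 9 and 0 in WT and 19 and 1 in eGFP-YAP. Their ratios were 0 (0 to 0.507) and 0.0526 (0.00127 to 0.331). Both intervals overlap those of other genes, so OR and other genes were not separated among loops of this span. The part of span in the OR counts was not tested.

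The peak score of OR loops was not at the low end of the lists. Its median percentile was 67.8 (38.2 to 90.7) in WT control and 64.5 (59.6 to 80.0) in eGFP-YAP control, against 49.4 and 49.6 at other genes. The WT interval includes the value of other genes and the eGFP-YAP interval does not. Scores at or above the middle of the whole list were held by 9 of 12 OR loops in WT and 21 of 27 in eGFP-YAP. The highest were a loop of 840 kb at OR5I1 in eGFP-YAP, at percentile 98.7, and the OR51D1 to OR51L1 loop in WT, at 98.2. Individual OR loops also ranked low, down to percentile 2.20 in WT and 1.07 in eGFP-YAP.

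**Figure D2:**
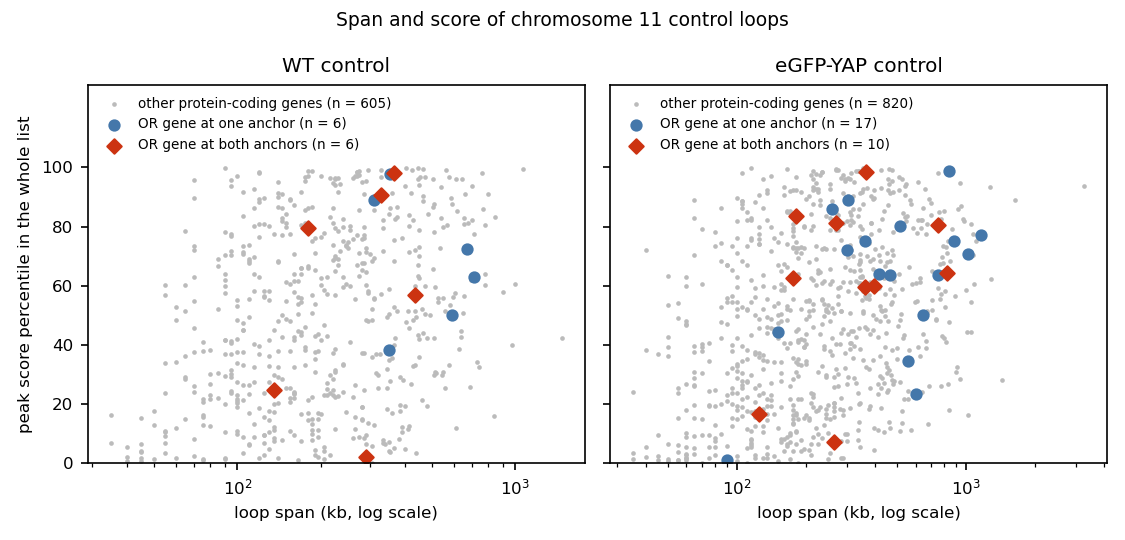
Span (kb, log scale) against the percentile of the peak score within the whole list for chromosome 11 control loops, with WT on the left and eGFP-YAP on the right; grey points are loops at other protein-coding genes, blue circles have an OR gene at a single anchor and red diamonds at both anchors. OR loops lie mostly in the right and upper part of each panel, with medians of 352.5 and 395 kb, and a few lie near the bottom.

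OR genes stood at both ends of many of these loops. Both anchors were at OR genes in 6 of 12 WT control loops, 10 of 27 eGFP-YAP control loops and the single sorbitol loop. Of the others, the partner anchor lay near another protein-coding gene in 1 WT and 7 eGFP-YAP loops and near none in 5 and 10. All 12 WT loops and 26 of 27 eGFP-YAP loops had OR genes between their anchors, with a median of 7.5 and 10 genes and at most 13 and 31. An OR gene start lay in 5 of 18 OR-side anchors in WT and in 7 of 37 in eGFP-YAP. Counting any protein-coding gene, 41.7% (19.3 to 68.0%) of WT and 33.3% (18.6 to 52.2%) of eGFP-YAP OR loops in control had a gene start in an anchor, above 14.2% and 15.2% of loops at other genes. OR genes are short, with a median body of 1.08 kb against 21.5 kb for other genes, so an anchor near a short OR gene is also near its start. The part of gene length in these shares was not tested.

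The promoters show how far OR genes differ from the other protein-coding genes of the chromosome in base composition. RefSeq promoters on GRCh38.p14, from 250 bases before to 50 after the gene start, were matched by symbol for 133 of 172 OR genes and 803 of 1145 other genes. The median GC content was 37.0% at OR genes and 62.3% at others. The median number of CpG dinucleotides was 1 against 21, and 27.2% of the 136 OR promoters had none against 1.95% of 1128.

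Few OR genes had a loop at all. In WT control 16 of 172 OR genes, 9.30% (Wilson interval 5.81 to 14.6%), had an anchor within 10 kb, and among other genes the share was 52.5%. With sorbitol it was 0 of 172, which allows up to 1.74%, against 43.2%. In eGFP-YAP control 31 OR genes, 18.0% (13.0 to 24.4%), had a loop, against 63.0%, and with sorbitol 3, 1.74% (0.595 to 5.00%), against 42.4%. Measured from the gene start alone, which leaves body length out, 6.40% (3.61 to 11.1%) of OR and 27.3% of other genes had an anchor within 10 kb in WT control, and 13.4% (9.08 to 19.3%) and 39.0% in eGFP-YAP control. The 71 other genes that lie inside the OR clusters had loops in 26.8% in WT control, 33.8% in WT sorbitol, 60.6% in eGFP-YAP control and 36.6% in eGFP-YAP sorbitol. Over all lists 138 OR genes had no loop, 31 had loops in control lists only and 13 had one in both control lists.

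**Figure D3:**
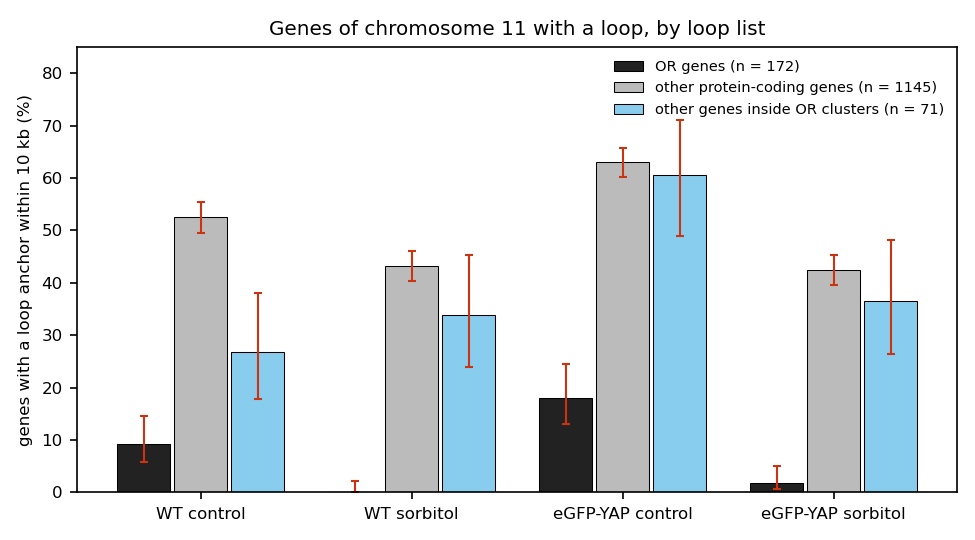
Share of genes (percent) with a loop anchor within 10 kb in each of the 4 lists, for 172 OR genes (black), 1145 other protein-coding genes of chromosome 11 (grey) and the 71 of these inside OR clusters (light blue); bars start at 0 and red lines are Wilson 95% intervals. The black bars stand at 9.30, 0, 18.0 and 1.74%, below the grey and light blue bars of the same list.

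A larger share of class I than of class II genes had a loop, and the intervals do not overlap. Neighbouring genes such as OR51D1 and OR51E1 share anchors, so genes are not independent and these intervals cover counting error only. Of 55 class I genes 19 had a loop in some list, 34.5% (23.4 to 47.7%), and of 117 class II genes 15, 12.8% (7.93 to 20.1%). By list, class I genes with a loop numbered 11, 0, 16 and 3 in WT control, WT sorbitol, eGFP-YAP control and eGFP-YAP sorbitol, and class II genes 5, 0, 15 and 0. The class I families stood at 9 of 22 genes for OR51, 8 of 27 for OR52 and 2 of 6 for OR56. The class II families of 20 or more genes stood at 5 of 35 for OR5, 5 of 23 for OR8 and 2 of 26 for OR4, and OR10 at 1 of 16. Families 2 and 6 of 5 genes each had none, family 9 had 2 of 5 and family 1 had 0 of 2. All class I genes lie in 1 cluster, which also holds 12 class II genes. None of those 12 had a loop, which allows up to 25%, so within the cluster the classes are not separated at these numbers.

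Joined over gaps of at most 1 Mb, the 172 genes form 7 clusters that cover 8.85 Mb. The first, chr11:4367263-7941708 from OR52B4 to OR10A3, holds 67 OR genes, all 55 of class I among them. It had 6 OR loops in WT control, 0 in WT sorbitol, 10 in eGFP-YAP control and 1 in eGFP-YAP sorbitol. The fifth, chr11:58023881-59713845 with 21 genes, had 4, 0, 9 and 0. The seventh, chr11:123753580-124582942 with 22 genes, had 2, 0, 4 and 0. The fourth, chr11:54603069-56989843, holds 51 genes and had 3 OR loops, all in eGFP-YAP control. A small cluster of 3 OR4C genes had 1 loop in eGFP-YAP control, and clusters 2 and 6, with 7 genes and 1 gene, had none. GC content of the clusters ran from 36.6 to 40%, below the 41.5% of the chromosome.

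**Figure D4:**
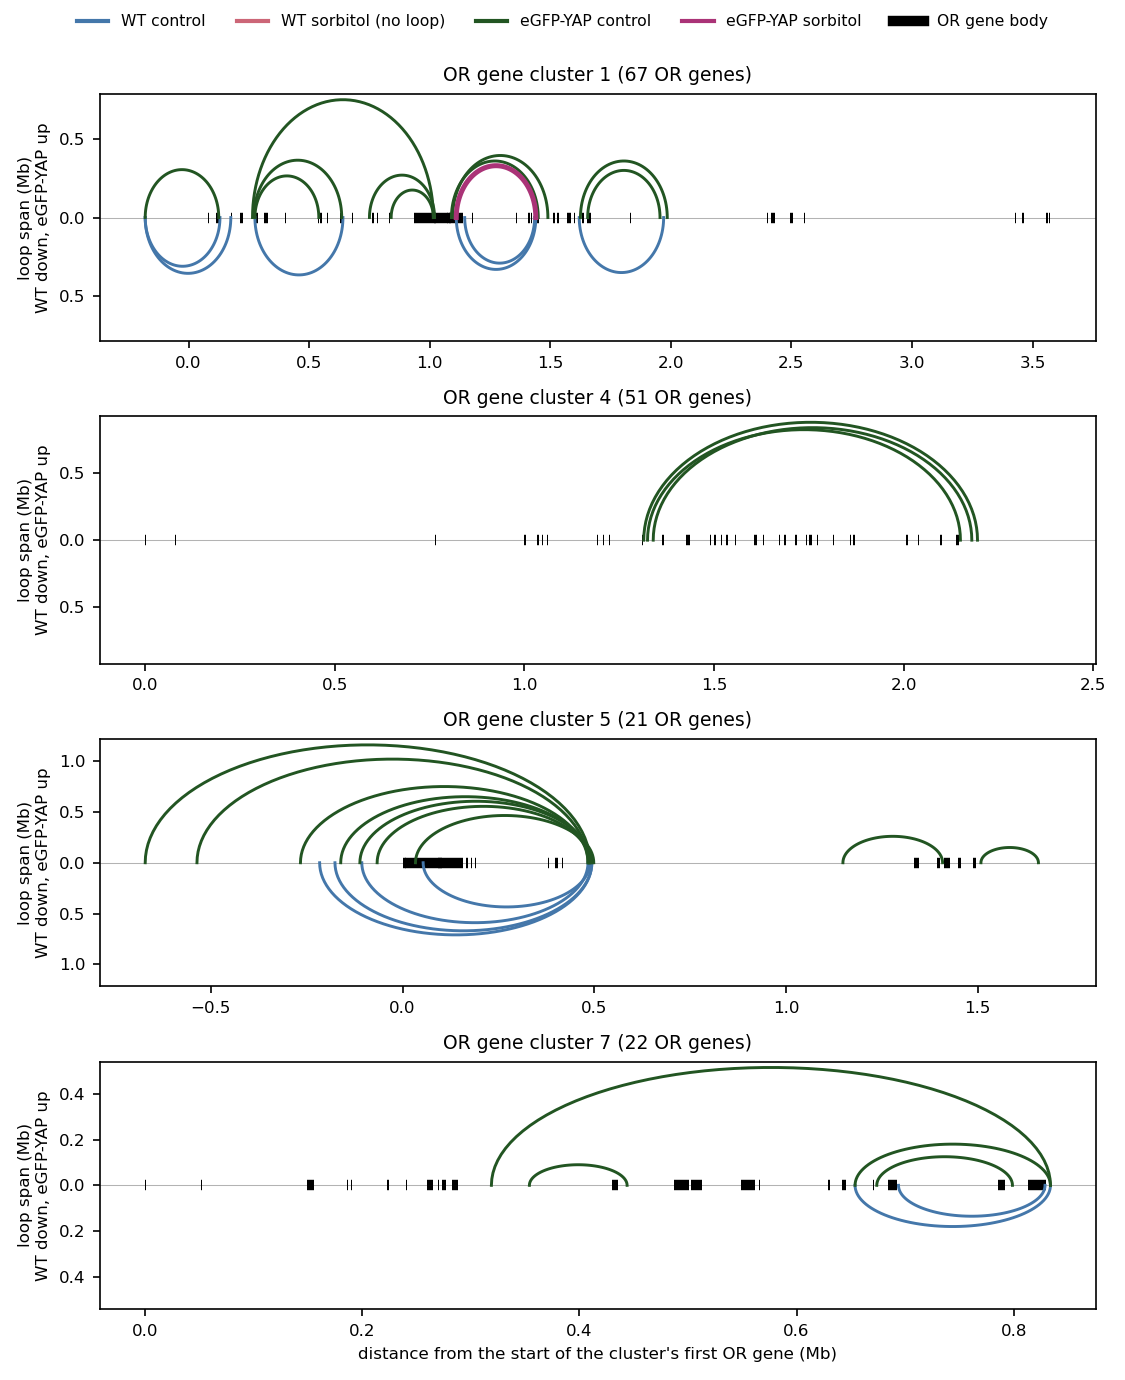
OR loops drawn as arcs over the 4 OR clusters with more than 1 OR loop, by distance from the start of the cluster's first OR gene (Mb); the height of an arc is its span (Mb), WT arcs point down and eGFP-YAP arcs up, and black bars are OR gene bodies. The only sorbitol arc is the thick one in the first cluster, which overlies a WT control arc of the same anchors; the single loop of cluster 3 is not drawn.

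The fourth cluster shows the widest enclosure of OR genes. Its 3 loops of 825, 840 and 880 kb start within 25 kb of each other near OR5I1 and OR5W2 and enclose 30 or 31 OR genes and 1 other gene each. The loop of 840 kb carries the convergent OR5I1 motif pair shown above. No WT control OR loop was listed in this cluster. Counting the anchor that was farther off, the nearest WT control loop was 900 kb away from the highest scoring of them, and the nearest eGFP-YAP sorbitol loop 895 kb. By the nearer anchor other loops lay closer. The right anchor of the highest scoring loop starts at 56780001. Loops not at an OR gene start at 56840001 in WT control and at 56835001 in eGFP-YAP sorbitol.

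In the class I cluster, loops followed the row of genes in steps. A loop of 305 kb in eGFP-YAP and 310 kb in WT ended at OR52K1, and a WT loop of 355 kb ended at OR52M1. Both WT loops started at the same anchor. OR51D1 and OR51E1, which lie side by side, had 1 loop in WT control and 3 in eGFP-YAP control, with partners at OR51A7 and OR51G2, at OR51L1, and at OR51M1. OR51M1 had 3 loops, all in eGFP-YAP control, to OR51D1 and OR51E1, to OR52A5 and to OR51V1. OR52L1 and OR56A4 shared 1 loop in each control list, of 350 and 360 kb.

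OR51B5 was the OR gene with the second most loops, with 2, 0, 5 and 1 over the lists. Its annotated body of 202 kb reaches across several other OR genes, and each of its loops was also at another OR gene, so leaving it out kept the counts at 12, 0, 27 and 1. The beta-globin genes, which make the oxygen carrier of red cells, lie in the same stretch. Of 5 beta-globin genes, HBB, HBD and HBG1 had 0 loops in every list. The 2 others, HBG2 and HBE1, had a loop in both control lists and in eGFP-YAP sorbitol and 0 in WT sorbitol. All of their loops, 2, 0, 5 and 1, were also OR loops, and both genes have annotated bodies that overlap that of OR51B5. Of 7 TRIM genes of the region, 2, 1, 3 and 1 had a loop, and of their 3, 1, 4 and 1 loops, 2, 0, 2 and 1 were also at an OR gene. The 7 include TRIM66, which lies beyond the cluster, and leave out TRIM3, which lies inside it at chr11:6448613-6474459. TRIM3, added after its values were seen, had 1, 4, 3 and 3 loops, none at an OR gene, so the TRIM counts depend on which members are listed.

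Anchors were reused. The 57 OR-side anchors of the 40 loops fall into 30 sites of touching or overlapping anchors, of which 18 were used once, 8 appeared in both control lists and 5 were used by 3 or more loops. The most used lies at OR5B21, a gene of 1.30 kb at chr11:58506807-58508105. It ended 4 loops in WT control and 6 in eGFP-YAP control, and 0 in both sorbitol lists. The WT loops spanned 435, 590, 670 and 710 kb, and the eGFP-YAP loops from 555 to 1160 kb. Their score percentiles ran from 50.2 to 72.6 in WT and from 23.5 to 77.3 in eGFP-YAP. The partners ran from P2RX3, an ATP-gated channel of sensory neurons, past CTNND1, which encodes p120 catenin, to OR9Q1. Leaving out OR5B21 gave 9 and 0 OR loops in WT and 21 and 1 in eGFP-YAP, so fewer were still listed with sorbitol in both lines. The exact interval for 9 and 0 runs from 0 to 0.507, which overlaps the 0.409 to 0.545 of other genes. For 21 and 1 in eGFP-YAP the exact interval runs from 0.00115 to 0.296083, which just reaches the 0.295955 to 0.390 of other genes. The separation of OR from other genes was thus kept in neither line without this gene, in eGFP-YAP by a narrow margin.

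The sorbitol lists had long loops that ended close to this site but not at it. This stretch was chosen after the lists were seen. Of loops of 400 kb or more ending within 100 kb of OR5B21, WT control listed 4 and eGFP-YAP control 8, and all ended between 58505001 and 58525000. WT sorbitol listed 3 and eGFP-YAP sorbitol 4, and all ended between 58570001 and 58590000. The sorbitol ends began 66.9 kb beyond OR5B21 in WT and 61.9 to 76.9 kb beyond it in eGFP-YAP. There lie the starts of LPXN, which encodes the focal adhesion protein leupaxin (58578220), and of ZFP91, a zinc finger protein (58579063). The end anchor held these starts in 3 of 3 WT sorbitol loops and in 1 of 4 eGFP-YAP sorbitol loops, and all 7 lay within 10 kb of ZFP91. The highest scores were at percentile 99.6 in WT, for a loop of 915 kb from CLP1 and ZDHHC5, and 97.4 in eGFP-YAP, for a loop of 925 kb from the same genes. Among these loops of 400 kb or more, the control and sorbitol ends do not overlap in either line. A shorter eGFP-YAP control loop of 80 kb has an anchor at 58565001-58570000, within 10 kb of LPXN and ZFP91 and beside the sorbitol ends.

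**Figure D5:**
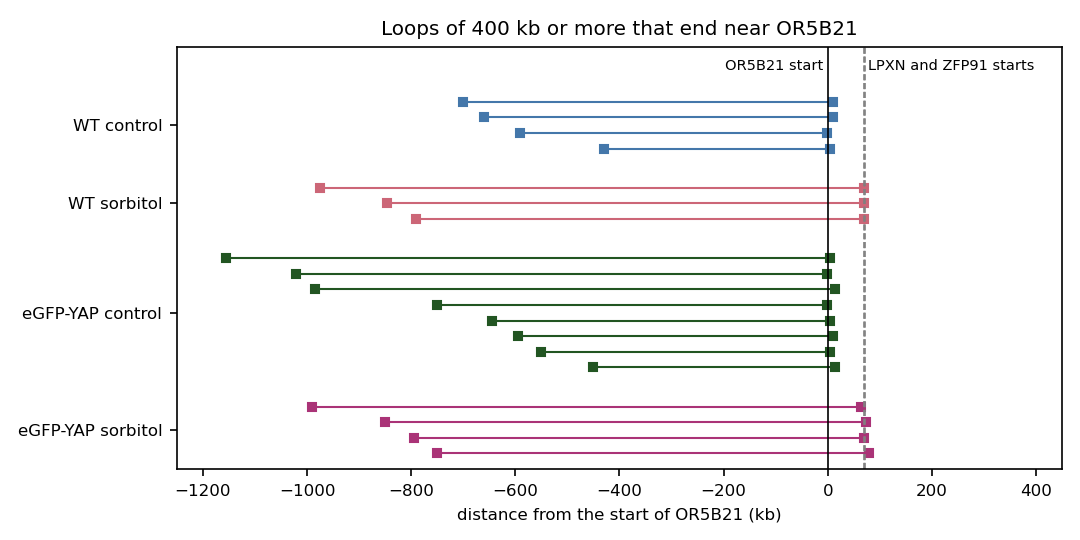
Loops of 400 kb or more that end within 100 kb of OR5B21, by distance from its start (kb); each line is a loop, squares are anchors, the solid line marks the start of OR5B21 and the dashed lines the starts of LPXN and ZFP91, which lie too close to be told apart here. The 12 control loops end at or beside the solid line, and the 7 sorbitol loops end at or beside the dashed lines.

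OR8A1, at the end of the seventh cluster, had 2 loops in each control list and 0 with sorbitol. In WT they came from OR8B3, at 180 kb, and from OR8B8, at 135 kb. In eGFP-YAP they came from OR8B3 at the same anchors and from an anchor 515 kb away. The remaining loops of this cluster, 125 kb from OR8B4 and OR8B8 to OR8B12 and 90 kb at OR10D3, were in eGFP-YAP control and had score percentiles of 16.6 and 1.07.

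The OR clusters were not empty of loops with sorbitol. Loops with an anchor inside a cluster, at an OR gene or not, numbered 26 in WT control, 19 in WT sorbitol, 62 in eGFP-YAP control and 18 in eGFP-YAP sorbitol. Those not at an OR gene numbered 14, 19, 35 and 17, so in WT more of them were listed with sorbitol than in control. A protein-coding gene started in an anchor of 0 of 14 of these loops in WT control, 14 of 19 in WT sorbitol (73.7%), 6 of 35 in eGFP-YAP control (17.1%) and 11 of 17 in eGFP-YAP sorbitol (64.7%). Among loops at other genes of the whole chromosome that share was 14.2% and 40.9% in WT and 15.2% and 45.9% in eGFP-YAP. Of the sorbitol loops in the clusters that were not at an OR gene, 19 of 19 in WT and 16 of 17 in eGFP-YAP lay within 10 kb of another protein-coding gene, against 13 of 14 and 31 of 35 in control. The WT sorbitol count includes a loop of 1145 kb whose only such gene is OR5D3P, and the eGFP-YAP control count a loop of 135 kb whose only such gene is OR8G3P. Both are annotated as protein-coding and named as OR pseudogenes.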

How the data were processed

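In situ Hi-C libraries were cut with MboI, per the labels' protocols. The authors deposited 1 loop list per condition with columns of the SIP loop caller, per the file headers. The authors' peak score has no fixed scale and was used to rank loops within a list. The deposited probability of enrichment, a fraction of at least 0.900, was not filtered further, and the other values deposited are anchor coordinates. Lists were assigned to conditions by name, and which replicates entered each is not stated. The builds hg38 and GRCh38 come from the submitters' processing notes. The aligner, caller version, map normalisation and read depth are not given in the sources used here, and the length of a list is not a measure of depth. The build was checked by motif shares: 28.7% of WT control anchors on chromosome 11 held the CTCF motif at the listed position and 22.4% and 21.3% when moved by 5 kb.

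Loops were counted with Python 3.11.15, pandas 2.3.3 and SciPy 1.17.1, and the counting and matching were tested on simulated data. Loops matched when both anchor centres lay within 10 kb. Ratios have exact (Clopper-Pearson) intervals, shares Wilson intervals and medians order-statistic intervals at 95%, and a share of 0 allows up to 3 counts. The alternatives were distances of 0 and 25 kb, matching at 0 and 25 kb, the upper 50% by score, shortened control lists, merged neighbours, pseudogenes, other gene boundaries and other motif settings. The genes named are the 20 with the most loops and those at a named loop, which are the loops shared between lines and the highest and longest of each list; the loops at OR5B21, LPXN and ZFP91 and single genes in other sentences were chosen after their values were seen. The members and lists were chosen with earlier results of these data known. No column of values was without a condition (0 columns). The other 18 of 32 samples were not analysed here.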

Additional observations from a re-analysis of the deposited data

How the results depend on the processing

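Of 78 alternative values for 20 results, 65 stayed within the interval of the reported value or within 1.5 times of it. Some of these could hardly move, since values with merged neighbours equal the reported ones. The share of sorbitol-only OR loops in eGFP-YAP rests on 1 loop, with an interval of 20.7 to 100%. Its values of 50% at 25 kb from the gene and 33.3% with pseudogenes therefore counted as inside. For the OR ratios, the direction of sorbitol against control did not turn. The exact intervals of the OR and other ratios overlapped in 4 of 9 settings for the loops or genes in WT and in 2 of 9 in eGFP-YAP. The overlapping settings have fewer OR loops or a wider distance. Merged neighbours, counted among the 9, left the OR loops at 12, 0, 27 and 1 and could only repeat the reported intervals. The eGFP-YAP ratio was 0 when OR anchors near another gene were left out, since the only sorbitol loop then dropped out. Matching at 25 kb gave 0% sorbitol-only OR loops in eGFP-YAP and 66.7% of WT control OR loops matched between lines. OR genes with a loop changed with the distance by construction: 10 in WT control and 13 in eGFP-YAP control at 0 kb, and 1 in WT sorbitol, 52 in eGFP-YAP control and 7 in eGFP-YAP sorbitol at 25 kb. With coding sequences in place of gene bodies, an alternative chosen after seeing the data, the eGFP-YAP sorbitol count was 1. The motif share was 4.17% in WT control and 13.0% in eGFP-YAP control with no mismatch (6.69% and 10.1% at other genes), and 62.5% and 50% with widened anchors, which search more sequence. Leaving out single replicates could not be done, and no value was obtained for sorbitol-only OR loops in WT, which has none. No paired analysis was possible because each condition has 1 pooled loop list that carries no replicate number. With 12 and 27 control loops, the precision of every OR value is set by these counts.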
